A study of Mus musculus with 6 samples.

Results

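Cadherins and transcription factors of the epithelial-mesenchymal transition (EMT) were examined as a set of 10 genes among the 23951 genes of the deposited table, chosen by gene symbol: the cadherins Cdh1, Cdh2, Cdh3, Cdh11 and Cdh13, and the factors Snai1, Snai2, Twist1, Zeb1 and Zeb2. All 10 were found in the table. RNA had been sequenced from 3 mouse melanoma lines with 2 libraries each. B16-F1 is the parental line of low metastatic potential and came from a cell repository. B16-F1R2 was recovered from a metastasis in a lymph node, and B16-F1R2L from a metastasis in the lung that arose from a lymph node metastasis. B16-F1R2 and B16-F1R2L came from another laboratory, which means that in a comparison with B16-F1 the line cannot be told apart from its source. No line was treated, and all were grown in DMEM with fetal bovine serum, glutamine and gentamicin. Whether a line was cultured separately for each library is not stated in the labels, so the p-values measure the spread between these libraries, which may be technical. In bulk RNA of this kind, fewer cells of a type and less RNA per cell cannot be told apart.

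Classical cadherins are transmembrane proteins that bind the same cadherin on the neighbouring cell and are linked to actin through catenins. During EMT, factors of the Snail, Twist and ZEB families bind E-boxes (short CANNTG motifs) and repress epithelial genes such as Cdh1, while mesenchymal genes rise. In the pigment cell lineage, which arises from the neural crest, Snai2 and Zeb2 belong to the normal melanocyte programme, and a switch from Cdh1 (E-cadherin) to Cdh2 (N-cadherin) and from Zeb2 and Snai2 towards Zeb1 and Twist1 has been described for melanoma progression.

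Snai1, Twist1 and Zeb2 had promoter sequences in the RefSeq table used here (build GRCm38.p6, windows of 250 bases before to 50 after a start site), and they are shown because the E-box is the motif that these factors bind. Capitals mark CANNTG, which reads the same on both strands. The forms CACCTG and CAGGTG, which are the same site on opposite strands, are the ones that Snail and ZEB factors prefer. Snai1 and Twist1 had 1 start site each. For Zeb2 the table gave 4 overlapping or separate windows, of which the most upstream and the most downstream are shown.
Snai1, chr2:167537945-167538244, plus strand: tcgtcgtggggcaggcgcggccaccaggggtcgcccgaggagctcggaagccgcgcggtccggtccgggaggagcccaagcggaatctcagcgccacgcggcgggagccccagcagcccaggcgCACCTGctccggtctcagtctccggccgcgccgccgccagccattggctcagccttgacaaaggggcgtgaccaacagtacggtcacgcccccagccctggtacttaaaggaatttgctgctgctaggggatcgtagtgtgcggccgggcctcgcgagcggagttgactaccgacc
Twist1, chr12:33957421-33957720, plus strand: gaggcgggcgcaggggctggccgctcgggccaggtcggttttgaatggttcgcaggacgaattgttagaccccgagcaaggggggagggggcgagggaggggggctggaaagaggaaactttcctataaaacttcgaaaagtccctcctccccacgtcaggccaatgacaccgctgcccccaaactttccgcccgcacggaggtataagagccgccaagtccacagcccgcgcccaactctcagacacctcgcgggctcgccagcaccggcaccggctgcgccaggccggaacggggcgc
Zeb2 start 1, chr2:45117393-45117692, minus strand: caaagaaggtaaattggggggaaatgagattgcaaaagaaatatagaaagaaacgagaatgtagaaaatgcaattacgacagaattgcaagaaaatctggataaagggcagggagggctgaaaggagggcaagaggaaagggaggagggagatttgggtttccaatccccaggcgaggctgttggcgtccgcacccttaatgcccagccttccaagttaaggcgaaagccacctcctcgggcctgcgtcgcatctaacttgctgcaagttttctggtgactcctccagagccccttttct
Zeb2 start 4, chr2:45110228-45110527, minus strand: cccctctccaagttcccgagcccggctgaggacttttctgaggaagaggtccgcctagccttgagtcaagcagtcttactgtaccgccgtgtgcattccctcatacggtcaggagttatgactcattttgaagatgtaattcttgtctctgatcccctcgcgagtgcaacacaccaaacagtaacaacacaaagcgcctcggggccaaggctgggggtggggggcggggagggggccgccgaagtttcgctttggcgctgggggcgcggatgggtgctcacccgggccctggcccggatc
The Snai1 window held 1 E-box, in the form CACCTG, and the windows of Twist1 and Zeb2 held none. Of the 32851 windows of 300 bases in the table, 20.2% held CACCTG or CAGGTG and 72.3% held CANNTG. The Snai1 and Twist1 windows were rich in CG dinucleotides, with 34 and 27, against 9 and 19 in the Zeb2 windows shown. A match is a description of the letters and not a measured site.

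The values are FPKM, fragments scaled by transcript length and by library size, so that levels can be compared between genes. The table gives no read counts. The smallest values at genes that have a single annotated transcript show what a read is worth, and from them the depth was estimated at 12700000 to 14800000 reads per library. Between 10617 and 11168 genes reached 1 FPKM in a library. As labelled, all 7 markers of the melanocyte lineage were detected in all libraries, with summed FPKM of 14970 and 15007 in parental B16-F1, 8125 and 7909 in the lymph node line B16-F1R2, and 8933 and 8924 in the lung line B16-F1R2L. Against B16-F1, limma called 6 of the 7 lower in B16-F1R2 (27.2% of all tested genes), all but Mitf, and the same number lower in B16-F1R2L (27.1%), where Mitf was called higher (log2 fold change 0.40, adjusted p = 0.0032). Summed FPKM of 6 markers stayed at or under 0.304 for fibroblasts and at or under 0.0600 for keratinocytes in every library. Of the 6 endothelial markers, 4 were listed at 0 throughout, and Pecam1 and Prox1 reached 1 FPKM. Pecam1 was listed at 0 in both B16-F1 libraries and lay between 0.752 and 1.26 FPKM in the other lines, while Prox1 had 1.66 and 1.63 FPKM in B16-F1 and between 0.790 and 1.16 elsewhere. Of the 6 leukocyte markers, Cd79a was listed at 0 and 0.0593 FPKM in B16-F1 and lay between 12.4 and 17.1 FPKM in the other lines, while Ptprc, Cd3e and Itgam were listed at 0 in all libraries. Cd68 lay between 0.983 and 2.67 FPKM and passed in no comparison. The part of Cd79a, Pecam1 and Prox1 in the results below was not tested.

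Only a small part of the family was abundant in these cells. Cdh2 lay between 27.6 and 53.1 FPKM over the 6 libraries, Zeb2 between 16.2 and 23.0, and Snai2 between 1.23 and 3.36. The other 7 genes did not reach 1 FPKM in at least 2 libraries, which was the filter for testing, and 6 of them stayed under 1 FPKM in all libraries. Cdh13 came nearest, with 1.32 FPKM in 1 library of B16-F1. The 3 genes that passed exceeded 1 FPKM in every library, so no line decided whether they were tested. Ranked by mean FPKM in B16-F1, Cdh2 lay above 85.7% of all genes in the table, Zeb2 above 79.2% and Snai2 above 61.5%.

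**Figure D1:**
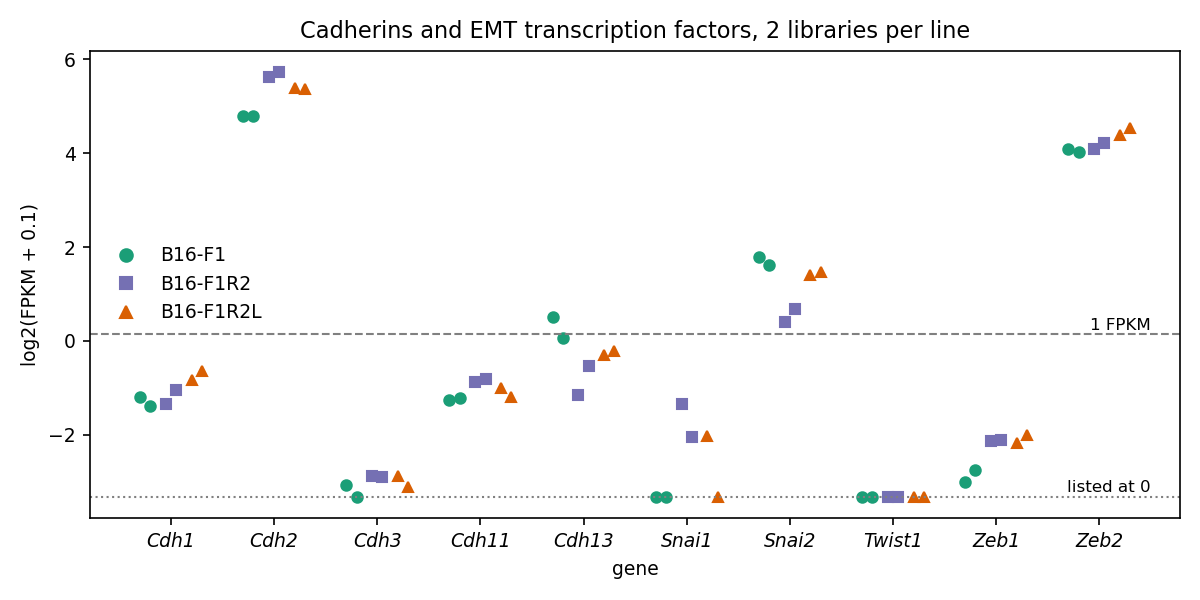
Level of the 10 genes on the scale log2(FPKM + 0.1), with 1 point per library and a marker for each line (2 libraries per line). Cdh2, Zeb2 and Snai2 lie above the dashed line at 1 FPKM in all 6 libraries, and Twist1 lies on the dotted line for values listed at 0.

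Among the cadherins, Cdh2, which encodes N-cadherin, the cadherin of neural and mesenchymal cells, lies on chromosome 18 of NCBIM37 from 16747386 to 16967755 on the minus strand. Its FPKM were 27.8 and 27.6 in parental B16-F1, 49.6 and 53.1 in the lymph node line B16-F1R2, and 42.1 and 41.5 in the lung line B16-F1R2L. The lines did not overlap, with B16-F1 lowest, B16-F1R2L between and B16-F1R2 highest. The means were 27.7 ± 0.171 FPKM (SD, n = 2), 51.3 ± 2.43 and 41.8 ± 0.473. In B16-F1R2 Cdh2 rose 1.85-fold over B16-F1 (log2 fold change 0.89, standard error 0.05, 95% interval 0.77 to 1.00, limma adjusted p = 2.8e-05). Larger changes in either direction occurred at 12.4% of the tested genes. In B16-F1R2L it rose 1.51-fold over B16-F1 (log2 fold change 0.59, 95% interval 0.48 to 0.71, limma adjusted p = 1.4e-04). Between the variants it was lower in B16-F1R2L, with a log2 fold change of -0.29 (95% interval -0.41 to -0.18, adjusted p = 0.012 from limma). This last call was lost when the libraries were rescaled to the same FPKM sum, where the log2 fold change was -0.19 (adjusted p = 0.085), and when the second B16-F1R2L library was left out, where it was -0.28 (adjusted p = 0.062).

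Cdh1, which encodes E-cadherin, the cadherin of epithelia and of the contact between melanocytes and keratinocytes, was low in every library. Its gene lies on chromosome 8 of NCBIM37 from 109127251 to 109194146 on the plus strand, downstream of Cdh3 with 46442 bases between them. The FPKM of Cdh1 were 0.338 and 0.281 in parental B16-F1, 0.293 and 0.384 in the lymph node line B16-F1R2, and 0.459 and 0.540 in the lung line B16-F1R2L. The libraries of B16-F1 and B16-F1R2 overlapped, and both B16-F1R2L libraries lay above the other lines. A read was worth about 0.0163 FPKM at the longest Cdh1 transcript, which limits how finely these levels can be compared. Within each library, Cdh2 exceeded Cdh1 82.3-fold and 98.1-fold in parental B16-F1, 169-fold and 138-fold in the lymph node line B16-F1R2, and 91.9-fold and 76.8-fold in the lung line B16-F1R2L. The ratio was highest in both B16-F1R2 libraries, and B16-F1 and B16-F1R2L overlapped.

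The remaining cadherins of the set were also low. Cdh3, which encodes P-cadherin, was at most 0.0352 FPKM in any library and had 0 listed for B16-F1 replicate 2. With a read worth about 0.0182 FPKM, Cdh3 stood at the level of single reads. Cdh11, a mesenchymal cadherin first known from osteoblasts, gave 0.318 and 0.329 FPKM in parental B16-F1, 0.447 and 0.465 in the lymph node line B16-F1R2, and 0.401 and 0.335 in the lung line B16-F1R2L. Both B16-F1 libraries lay lowest at Cdh11 and both B16-F1R2 libraries highest. Cdh13, an atypical cadherin held in the membrane by a lipid anchor, gave 1.32 and 0.942 FPKM in parental B16-F1, 0.349 and 0.587 in the lymph node line B16-F1R2, and 0.714 and 0.755 in the lung line B16-F1R2L. Both B16-F1 libraries lay above all others at Cdh13, and both B16-F1R2 libraries lay below all others. Like Cdh1, these genes lie on chromosome 8 of NCBIM37, Cdh3 from 109034791 to 109080808 and Cdh13 from 120807633 to 121848821 on the plus strand, and Cdh11 from 105156895 to 105309011 on the minus strand.

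To place the 5 cadherins within their family, 18 other cadherin genes of the Cdh series were listed. Only Cdh19 and Cdh24 passed the filter, and 8 of the remaining 16 were listed at 0 in all libraries. Cdh19, a cadherin of the neural crest and its glial derivatives, was nearly as abundant as Cdh2 in B16-F1. It gave 26.0 and 25.6 FPKM there, 23.7 and 24.4 in the lymph node line, and 22.3 and 25.8 in the lung line, and no comparison passed the threshold (adjusted p = 0.31, 0.28 and 0.97 from limma). Of the summed FPKM of the 23 cadherins, Cdh2 held 48.7% and 49.2% in parental B16-F1, 64.8% and 65.7% in the lymph node line B16-F1R2, and 62.4% and 58.7% in the lung line B16-F1R2L. Cdh2 and Cdh19 together held 94.3% to 95.9% of that sum in every library. Cdh1 held at most 0.765%.

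**Figure D2:**
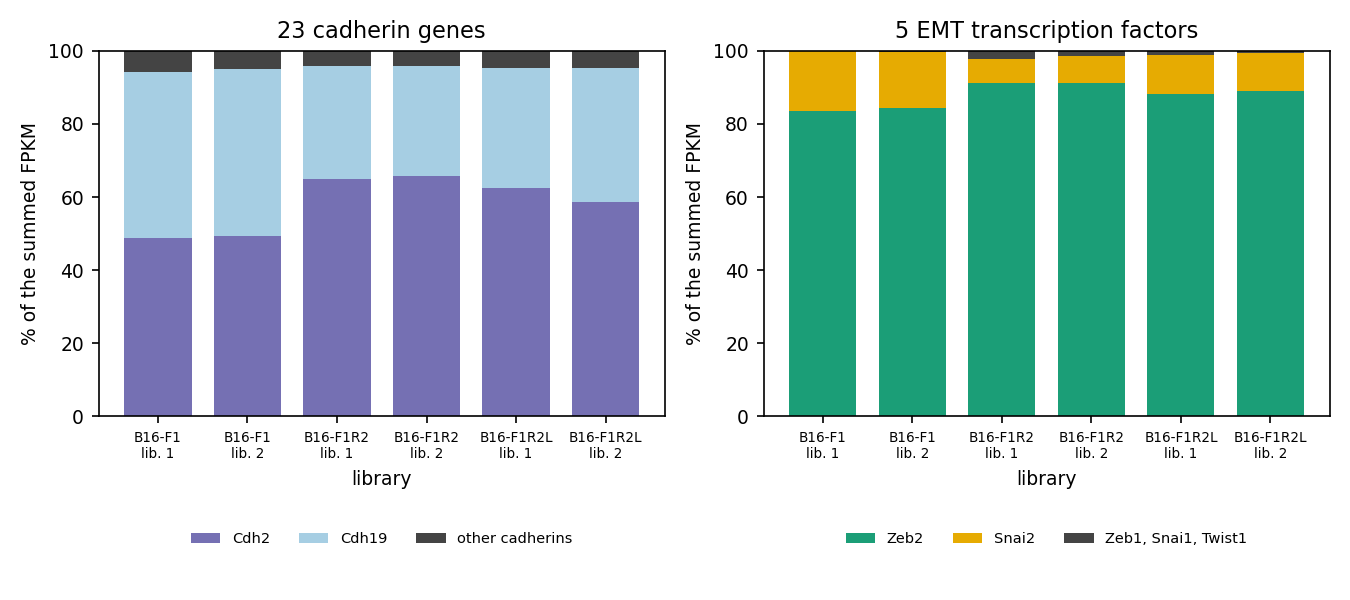
Share of each gene in the summed FPKM of 23 cadherin genes (left) and of the 5 EMT transcription factors (right), 1 bar per library. Cdh2 holds 48.7% and 49.2% in the parental line but 64.8% and 65.7% in B16-F1R2, and Zeb2 holds between 83.5% and 91.3% of the factor sum.

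Among the factors, Snai2, which encodes the zinc finger repressor Slug, showed the widest change of those that could be tested, Snai2 and Zeb2. It lies on chromosome 16 of NCBIM37 from 14705945 to 14709488 on the plus strand. Its FPKM were 3.36 and 2.99 in parental B16-F1, 1.23 and 1.51 in the lymph node line B16-F1R2, and 2.55 and 2.66 in the lung line B16-F1R2L. The lines did not overlap, and B16-F1R2 stood apart below the other lines. The means were 3.17 ± 0.262 FPKM (SD, n = 2), 1.37 ± 0.199 and 2.61 ± 0.0809. In B16-F1R2 Snai2 fell to 0.447 of its B16-F1 level (log2 fold change -1.16, standard error 0.14, 95% interval -1.50 to -0.82, limma adjusted p = 7.5e-04). Larger changes in either direction were found at 8.95% of the tested genes.

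Against B16-F1, the log2 fold change of Snai2 in B16-F1R2L was -0.27 (95% interval -0.61 to 0.07, adjusted p = 0.14 from limma), so that a difference between these lines was not detected. After quantile normalization it was -0.64 with an adjusted p of 0.012. B16-F1R2L exceeded B16-F1R2 1.85-fold, a log2 fold change of 0.89 (95% interval 0.55 to 1.23, adjusted p = 0.011 from limma). This call was lost without the first B16-F1R2 library (log2 fold change 0.75, adjusted p = 0.061) and without the second B16-F1R2L library (0.86, adjusted p = 0.065). The tested genes whose values over the 6 libraries followed Snai2 most closely were Slc25a35 and Fry, at distances of 0.16 and 0.18 on the centred log2 scale. Slc25a35, a mitochondrial carrier gene, gave 6.84 and 6.70 FPKM in parental B16-F1, 2.47 and 3.14 in the lymph node line B16-F1R2, and 4.95 and 5.54 in the lung line B16-F1R2L.

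Zeb2, a zinc finger and homeodomain repressor, was the most abundant of the 5 factors. It lies on chromosome 2 of NCBIM37 from 44839154 to 44972915 on the minus strand, and the annotation places exons of a second gene on each strand over its exons. Its FPKM were 17.1 and 16.2 in parental B16-F1, 17.0 and 18.6 in the lymph node line B16-F1R2, and 20.9 and 23.0 in the lung line B16-F1R2L. B16-F1 and B16-F1R2 overlapped, and both B16-F1R2L libraries lay above them. The means were 16.6 ± 0.588 FPKM (SD, n = 2), 17.8 ± 1.15 and 22.0 ± 1.46. Between B16-F1R2 and B16-F1 no difference was detected, with a log2 fold change of 0.10 (95% interval -0.08 to 0.27, adjusted p = 0.30 from limma). In B16-F1R2L Zeb2 rose 1.32-fold over B16-F1 (log2 fold change 0.40, standard error 0.07, limma adjusted p = 0.0043). Against B16-F1R2 the log2 fold change was 0.30 (95% interval 0.12 to 0.48, adjusted p = 0.033 from limma), and 8 of the 16 alternative settings took the adjusted p above 0.05, with values up to 0.16.

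**Figure D3:**
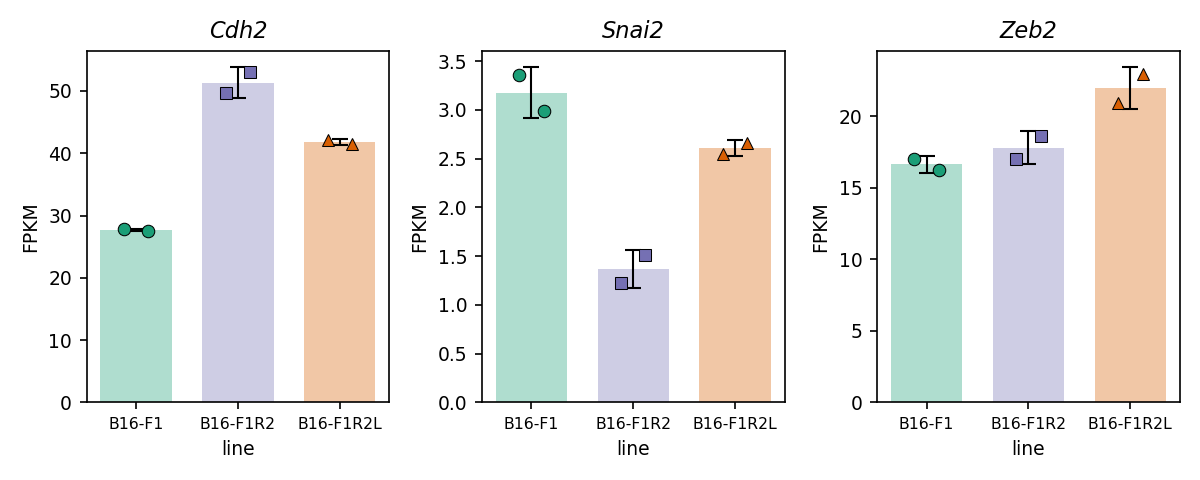
FPKM of Cdh2, Snai2 and Zeb2 in each library (points), with the mean of each line (bars) and the standard deviation of its 2 libraries (error bars). B16-F1R2 is highest for Cdh2 and lowest for Snai2, and B16-F1R2L is highest for Zeb2.

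Zeb1, the paralogue of Zeb2, gave 0.0237 and 0.0492 FPKM in parental B16-F1, 0.127 and 0.132 in the lymph node line B16-F1R2, and 0.119 and 0.149 in the lung line B16-F1R2L. Both B16-F1 libraries lay below the other 4, which overlapped. With a read worth about 0.0124 FPKM at the longest Zeb1 transcript, the B16-F1 values correspond to a few reads. Zeb2 exceeded Zeb1 at least 133-fold in every library. Snai1, which encodes Snail, was listed at 0 in both B16-F1 libraries and in the second B16-F1R2L library. It had 0.295 and 0.141 FPKM in B16-F1R2 and 0.144 in the first B16-F1R2L library, where a read was worth about 0.0446 FPKM. Twist1, a basic helix-loop-helix factor, was listed at 0 in all 6 libraries. In NCBIM37, Zeb1 lies on chromosome 18 from 5591858 to 5775465, Snai1 on chromosome 2 from 167363695 to 167368314 and Twist1 on chromosome 12 from 34642536 to 34644682, all on the plus strand. Zeb1, Snai1 and Twist1 together held at most 2.27% of the summed FPKM of the 5 factors, and Snai2 held 16.4% and 15.5% in parental B16-F1, 6.58% and 7.39% in the lymph node line B16-F1R2, and 10.7% and 10.3% in the lung line B16-F1R2L.

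Across the comparisons, only 3 genes of the set could be called, too few to set their share apart from that of all genes. At an adjusted p under 0.05, B16-F1R2 had 1 gene of 3 higher than B16-F1 (Cdh2), against 28.2% of all 11379 tested genes, and 1 lower (Snai2), against 27.2%. B16-F1R2L had 2 of 3 higher than B16-F1 (Cdh2 and Zeb2), against 29.5% of all tested genes, and 0 lower, against 27.1%. The comparisons of both variants with B16-F1 share the B16-F1 libraries. Against B16-F1R2, B16-F1R2L had 2 of 3 higher (Snai2 and Zeb2), with 12.1% in the background, and 1 lower (Cdh2), with 10.5%. After rescaling to equal FPKM sums, higher genes made up 66.6% of the calls in B16-F1R2L against B16-F1, up from 52.1%, and 81.0% against B16-F1R2, up from 53.7%. That rescaling moved the median log2 fold change of all genes to 0.12 and 0.13, while Zeb2 stood at 0.50 and 0.41 and Cdh2 at 0.70 and -0.19. For a gene taken alone, the smallest two-sided p of an exact permutation test over 4 libraries is 0.333, and the calls are those of limma.

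When every gene with a value above 0 was entered, 16483 genes in all, members of low level were called as well. In B16-F1R2 against B16-F1, Zeb1 was higher (log2 fold change 0.76, adjusted p = 0.020) and Cdh13 was lower (log2 fold change -1.13, adjusted p = 0.029). Snai1, at 0 in B16-F1, was also called higher, with an adjusted p of 0.049. In this setting 21.3% of genes were higher and 19.3% lower. In B16-F1R2L against B16-F1, Zeb1 was again higher (log2 fold change 0.78, adjusted p = 0.018), while Cdh13 and Snai1 did not pass (adjusted p = 0.19 and 0.35), with 23.2% of genes higher and 19.0% lower. Cdh1, Cdh3 and Cdh11 passed in no comparison of this setting. At these levels the pseudocount of 0.1 FPKM has a strong effect on the size of a log2 fold change.

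**Figure D4:**
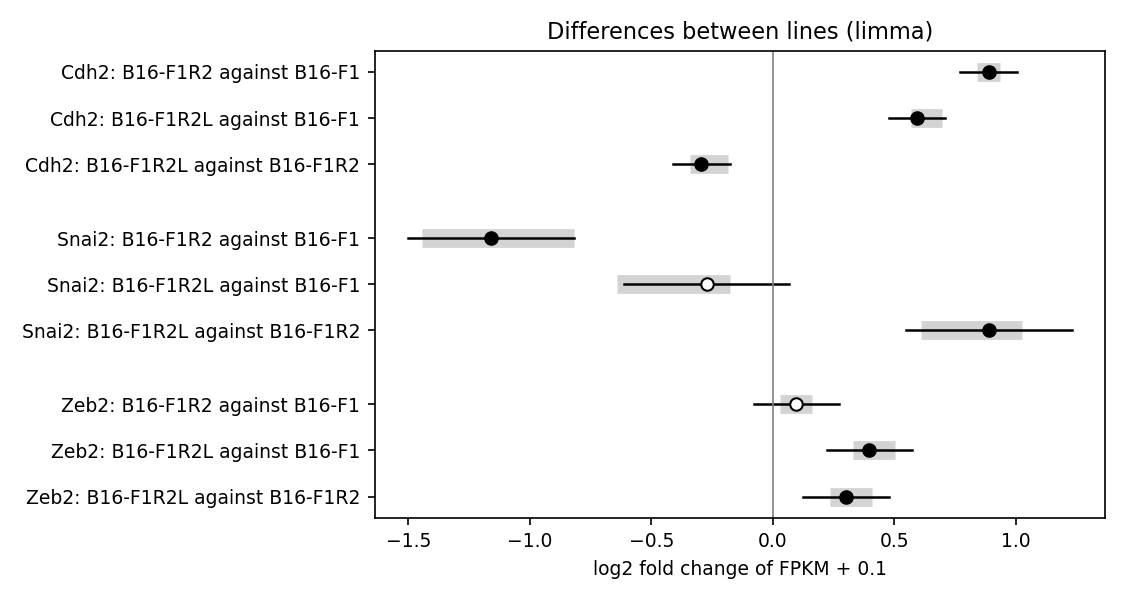
Log2 fold change of Cdh2, Snai2 and Zeb2 between the lines, with the 95% interval from limma (black lines) and the range over the alternative settings (grey bars). Filled points passed an adjusted p of 0.05, and the 2 open points (Snai2 in B16-F1R2L and Zeb2 in B16-F1R2, both against B16-F1) did not.

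Cadherins act through catenins, and 9 of 12 listed catenins and linker genes passed the filter. In B16-F1R2, 4 of the 9 were higher and 2 lower than in B16-F1, beside 28.2% and 27.2% of all tested genes, with a median log2 fold change of 0.02 against 0.00 for all tested genes. Jup, which encodes plakoglobin, a catenin shared by adherens junctions and desmosomes, rose from 0.632 and 0.649 FPKM (B16-F1) to 6.43 and 5.91 (B16-F1R2) and to 5.53 and 4.66 in the lung variant (log2 fold changes 3.08 and 2.80 against B16-F1). Being under 1 FPKM in both B16-F1 libraries, Jup passed the filter only through the variants, which favoured a higher call. With no filter, 4 of 9 were higher and 2 lower in each variant against B16-F1. At a minimum of 5 FPKM, 3 of 7 were higher and 2 lower in each. Arvcf, a relative of p120-catenin, rose from 1.02 and 1.09 FPKM to 4.56 and 4.14 in B16-F1R2 (log2 fold change 1.94). Ctnnal1, an alpha-catenin-like gene, rose by a log2 fold change of 0.60. Ctnnb1, which encodes beta-catenin, was by far the most abundant and fell from 588 and 584 FPKM to 420 and 410 in B16-F1R2 (log2 fold change -0.50, adjusted p = 2.0e-04 from limma). Ctnna1, the alpha-catenin that links to actin, lay between 92.9 and 99.3 FPKM in all libraries. B16-F1R2L also had 4 higher and 2 lower than B16-F1, beside 29.5% and 27.1% of all tested genes, and between the variants 0 of the 9 passed in either direction by limma, with 1 (Ctnnal1) at an unadjusted p under 0.05, beside 12.1% higher and 10.5% lower of all tested genes.

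Epithelial genes were scarce in all lines. Of 24 junction and keratin genes, 5 passed the filter, and Epcam, Krt8, Krt18, Cldn4 and Dsp were at most 0.214 FPKM in any library. B16-F1R2 had 1 of the 5 above and 3 below B16-F1 (28.2% and 27.2% of all tested genes). There, F11r fell from 5.66 and 5.35 FPKM to 1.23 and 1.60 (a log2 difference of -1.90), Tjp3 fell by 0.96 on the log2 scale, while Pkp2, a desmosomal plaque gene, rose by 0.76. F11r encodes a junctional adhesion molecule, and Tjp3 encodes a ZO scaffold of tight junctions. In B16-F1R2L, 2 were higher (Pkp2 and Tjp1) and 2 lower than in B16-F1 (29.5% and 27.1% of all tested genes), and Tjp3 did not pass (log2 fold change -0.43, adjusted p = 0.12 from limma). After quantile normalization 1 was higher and 3 were lower in this comparison. The number higher was 1 without either B16-F1 library or without the second B16-F1R2L library. Of 10 regulators of epithelial identity, such as Esrp1, Grhl2 and Ovol1, 0 passed the filter.

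Mesenchymal genes, by contrast, were mostly higher in the variants. Of 24 listed genes 17 passed the filter, and in B16-F1R2 14 were higher and 2 lower (Mmp14 and Itgav) than in B16-F1, beside 28.2% and 27.2% of all tested genes. Of the higher genes, Myl9, Col1a1, Tpm2, Col1a2 and Postn lay under 1 FPKM in both B16-F1 libraries. They passed the filter only through the variants, which favoured a call in that direction. With no filter 15 of 22 were higher and 2 lower, beside 21.3% and 19.3% of all genes entered. The list was chosen with earlier results of these data known. The median log2 fold change of the 17 genes was 0.71. After quantile normalization 11 were higher, and Col1a2 and Postn turned negative and, like Sparc, lost their calls. Tagln, which had not passed, turned negative as well. The myosin light chain gene Myl9 went from 0.224 and 0.468 FPKM to 33.7 and 33.3 (a log2 difference of 6.29). The collagen gene Col1a1 had a log2 fold change of 5.54 and the matrix metalloproteinase gene Mmp2 of 4.21. Tpm2, a tropomyosin, had 4.39, which fell to 1.85 with a pseudocount of 1. Vim, which encodes the intermediate filament vimentin, was already at 1283 and 1288 FPKM in B16-F1 and stood at 1861 and 1810 in B16-F1R2 (log2 fold change 0.51). In B16-F1R2L, 13 were higher and 3 lower than in B16-F1, beside 29.5% and 27.1%, with a median of 1.00. Myl9, Col1a1, Tpm2, Col1a2 and Postn were among the higher here too, with the same limit from the filter. With no filter 13 of 22 were higher and 2 lower, with a median of 0.77, beside 23.2% and 19.0% of all genes entered. Sparc, a secreted matrix-associated glycoprotein, was called in opposite directions, higher in B16-F1R2 (log2 fold change 0.19, adjusted p = 0.014) and lower in B16-F1R2L (log2 fold change -0.25, adjusted p = 0.0047), and neither call held after quantile normalization (adjusted p = 0.059 and 0.057). Postn in B16-F1R2L, called higher than B16-F1 (log2 fold change 0.57, adjusted p = 0.042), was called lower after quantile normalization (-0.83, adjusted p = 0.038). Against B16-F1R2, B16-F1R2L had 3 higher and 6 lower, beside 12.1% and 10.5% of all tested genes, and Col1a1 was among the lower with a log2 fold change of -2.73. These counts were 0 higher and 4 lower without either B16-F1R2 library or without the second B16-F1R2L library, and 1 higher and 6 lower without the first B16-F1R2L library.

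Of 20 other transcription factors linked to EMT, 12 passed the filter. In B16-F1R2, 4 of the 12 were higher and 6 lower than in B16-F1, beside 28.2% and 27.2% of all tested genes, with a median log2 fold change of -0.12. Hmga2, an architectural chromatin protein, rose from 8.16 and 7.13 FPKM to 24.5 and 25.8 (a log2 difference of 1.71). The neural crest factor Sox9 fell from 3.40 and 3.33 FPKM to 0.930 and 1.24 (a log2 difference of -1.56), and the Hippo pathway coactivator Wwtr1 fell by 0.53 on the log2 scale. The number of higher genes in this list dropped to 1 when either the second B16-F1 library or the second B16-F1R2 library was left out, and to 2 without the first B16-F1 library or without a trend. In B16-F1R2L, 2 were higher and 3 lower than in B16-F1, beside 29.5% and 27.1% of all tested genes. The number higher was 1 without either B16-F1 library or without the second B16-F1R2L library and 4 after rescaling, and the number lower was 1 at a minimum of 5 FPKM. Snai3 and Twist2, the other members of the Snail and Twist families in the list, were listed at 0 in all libraries.

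**Figure D5:**
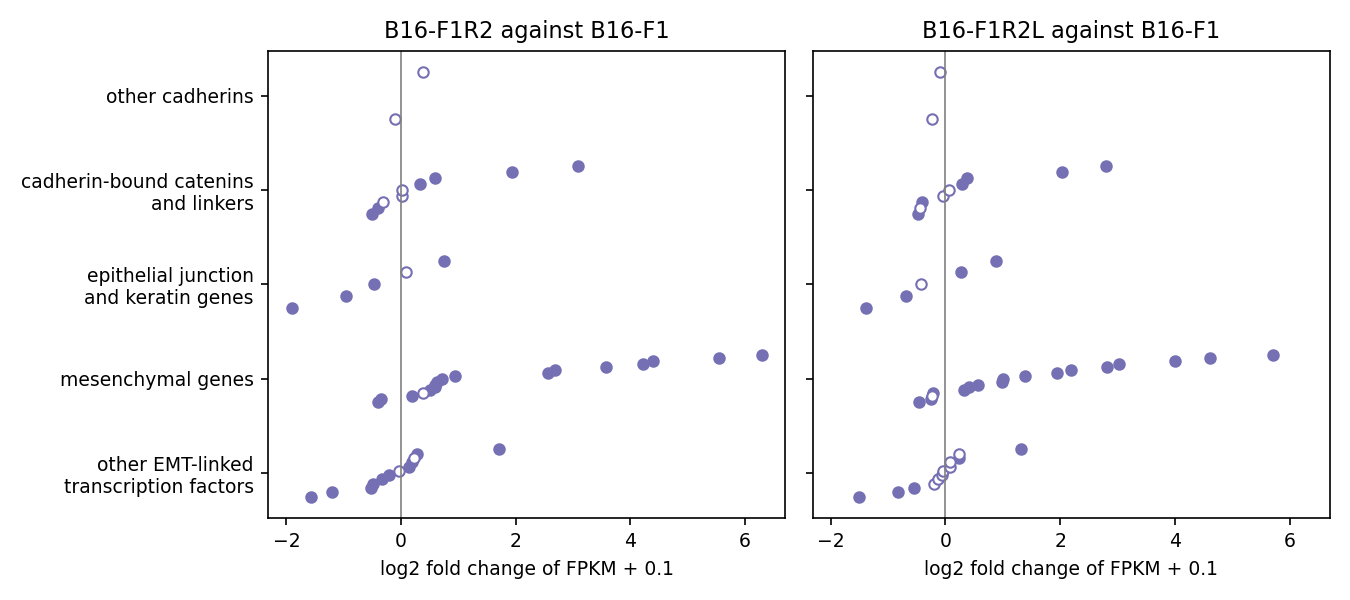
Log2 fold change of FPKM + 0.1 of each tested gene in 5 gene groups, for B16-F1R2 (left) and B16-F1R2L (right) against B16-F1. Filled points passed an adjusted p of 0.05, and 14 of the 17 mesenchymal genes lie to the right of 0 as filled points in the left panel. Of these, Myl9, Col1a1, Tpm2, Col1a2 and Postn lay under 1 FPKM in both B16-F1 libraries and passed the filter only through the variants.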

How the data were processed

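The authors sequenced polyadenylated RNA with a strand-specific kit as short unpaired reads and placed them on the mouse genome NCBI37/mm9 by TopHat2 2.0.10, Bowtie 1.0.0 and SAMtools 0.1.1.9, after FastQC 0.10.1. Reads with several positions were allowed. The submitters' processing notes also name Cuffnorm. The gene annotation and the strand setting of the counting are not given in the sources used here. The authors deposited FPKM per gene and library, unpooled, and all 6 columns were used. In this work log2(FPKM + 0.1) was compared with limma 3.58.1 (R 4.3.3, moderated by eBayes using a mean-variance trend, all 6 libraries in 1 model) over the 11379 genes that reached 1 FPKM in 2 or more libraries, with Benjamini-Hochberg adjustment, a threshold of 0.05 and no block. FPKM are not counts, so the authors' DESeq2 was not repeated, and fold changes of genes near the pseudocount come out too small. An FPKM of 0 can be a failed estimate and is given as listed at 0.

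Positions and transcript lengths came from NCBIM37, the assembly that mm9 names. Stretches of 50 bases shared with coding transcripts of other genes made up 1.66% for Cdh11, 0.96% for Snai2 and 0 for the other 8 genes. The 10 genes and the lists were chosen with earlier results of these data known. Named from each list were at most 4 genes, with the largest log2 fold change between B16-F1R2 and B16-F1 among those past the threshold without overlap, and others were named after their values were seen. Some genes that this rule names are not reported here. The nearest genes were the 2 at the smallest Euclidean distance of centred log2 values, for members past the threshold with an absolute log2 fold change of at least 1 against B16-F1. Alternatives were pseudocounts of 1 and 0.01, other filters and scalings, no trend, 4 libraries, a replicate block, a minimum log2 fold change of 1 and leaving out each library. The steps were tested on simulated data.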

Additional observations from a re-analysis of the deposited data

Results flagged for a closer look

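With all libraries, the changes of both variants against B16-F1 differed past the threshold for the 3 tested genes, in the direct comparison of B16-F1R2L with B16-F1R2, in which the B16-F1 libraries cancel. The difference in log2 fold change (B16-F1R2L minus B16-F1R2) was 0.89 for Snai2 (adjusted p = 0.011 from limma), -0.29 for Cdh2 (adjusted p = 0.012) and 0.30 for Zeb2 (adjusted p = 0.033). Without the second B16-F1R2L library none of the 3 passed (adjusted p = 0.065, 0.062 and 0.14 from limma, in the same order). Without the first B16-F1R2 library only Cdh2 passed, and Zeb2 lost its call in 8 of 16 alternative settings. Groups of 2 libraries are too small to look for single libraries that stand apart.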

How the results depend on the processing

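Over 16 alternative settings for Cdh2 and Zeb2 and 15 for Snai2 (untested at a minimum of 5 FPKM), no log2 fold change turned its direction. Against B16-F1, Cdh2 in both variants, Snai2 in B16-F1R2 and Zeb2 in B16-F1R2L kept their calls in all of them, with log2 fold changes of 0.84 to 0.94 and 0.57 to 0.70, -1.44 to -0.82, and 0.33 to 0.50. In B16-F1R2 against B16-F1, no filter gave 3 members higher and 2 lower, the 5 FPKM minimum gave 0 lower, and a minimum log2 fold change of 1 gave 0 members higher, 819 genes higher and 328 lower. In B16-F1R2L against B16-F1, that minimum gave 0 members higher, 957 genes higher and 259 lower, rescaling gave 2043 genes lower, and quantile normalization 1 member lower (Snai2). Between the variants, 1 member was higher with no filter, the 5 FPKM minimum, no trend or 4 libraries, and 0 at the minimum log2 fold change, which left 0 members lower, 116 genes higher and 24 lower. There, rescaling gave 0 members lower, 2079 genes higher and 489 lower, 4 libraries gave 874 and 644, and no filter and no trend gave 743 and 650 genes lower. Leaving out each library gave 0 to 2 members higher, 0 to 1 lower, 297 to 904 genes higher and 140 to 991 lower, the lowest gene counts without the first B16-F1R2 library. The cause was not tested. With the replicate block, the counts were 3141 higher and 3040 lower, 3299 and 3031, and 1217 and 1104, and no member's call changed. Equal replicate numbers did not deviate together (correlations 0.05, -0.10 and 0.08 over 11379 genes), so they were not taken as pairs.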
